A study of Mus musculus with 8 samples.

Results

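The genes described here are 10 autophagy genes of red cell maturation (Ulk1, Ulk2, Atg4b, Atg7, Gabarapl1, Gabarapl2, Map1lc3b, Becn1, Sqstm1 and Foxo3), chosen as members of one pathway and found by symbol among the 11364 genes of the nascent RNA tables. All 10 were listed in both tables. The sites described are the 8 of 5551 KLF1 binding sites whose listed closest transcription start site (TSS) belongs to one of these genes.

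The study examined the E339K substitution in mouse KLF1, which models the E325K mutation of congenital dyserythropoietic anemia type IV, in K1 cells, an immortalised Klf1-/- mouse erythroid line. The mutant protein (in K1-E339K-ER cells) and the wild type protein (in K1-ER cells) were each joined to a ligand-binding domain of the estrogen receptor, which holds them in the cytoplasm until 4-OHT is added. All lines lack endogenous KLF1, and K1-E339K-ER cells are clones that carry only the mutant protein, so the human heterozygous state was not modelled. Of the 8 samples, 6 were 4sU-RNA libraries of newly made RNA, labelled with 500 µM 4sU for 30 min by the labels. They were 2 K1 libraries treated with 200 nM 4-OHT, 1 K1 library treated with ethanol and 3 K1-E339K-ER libraries treated with 200 nM 4-OHT, each from a different clone. The paper's methods instead give 500 mM 4sU, with 4sU and 4-OHT (or ethanol) present for 1 h. The other samples were a ChIP library (1) against the estrogen receptor domain and its input (1), both from a single K1-E339K-ER clone and taken 3 h after induction with 200 nM 4-OHT, with replicates pooled before the library was made. The KLF1-ER values in the deposited tables come from earlier libraries of the authors that are not among the 8 samples.

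The values below are the authors' means over libraries, without counts per library. Depth is therefore unknown, no replicate error can be given, and no difference was tested. Changes of RNA between cell lines were not analysed here.

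Autophagy encloses cytoplasm and organelles in a membrane that is delivered to the lysosome. Initiation kinases and a lipid kinase complex start the membrane, and a conjugation system attaches small ATG8 proteins to it. Cargo receptors link what is to be degraded to those ATG8 proteins. A maturing red cell uses this pathway to remove its mitochondria and other organelles, and the transcription factor FOXO3 is known to activate autophagy genes during erythroid maturation.

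The binding data placed sites at 3 of the 10 genes, with 6 sites at Foxo3, 1 at Sqstm1 and 1 at Atg4b. The other 7 genes were not named as the closest TSS of any site. Among all listed genes, 25.2% (2868) were named at least once. KLF1-E339K-ER had the higher concentration by 2-fold or more at 4 of the 8 sites, where the same held for 61.5% of all sites. KLF1-ER had the higher concentration by 2-fold or more at 3 of the 8, where the same held for 28.7% of all sites. The concentrations at the remaining site lay within 2-fold. At a minimum of 4-fold the counts were 4 of 8 for KLF1-E339K-ER (55.3% of all sites) and 2 of 8 for KLF1-ER (23.3%). Concentration here is DiffBind's log2 of the mean normalized read count at a site, as the authors gave it for each protein. The KLF1-ER libraries were made earlier than the KLF1-E339K-ER library, so a difference between proteins cannot be told apart from one between experiments. With 8 sites, these shares are a description of the sites and no test was made against the background.

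KLF1 recognises the G-rich strand of a CACCC box, and the study's own motif search on this peakset distinguished 2 forms by the base at position 5 of the G-rich strand. The canonical form has a pyrimidine there (NGGGCGGGG, NGGGCGTGG, NGGGTGGGG or NGGGTGTGG) and the form found for the mutant has a purine (NGGGAGGGG, NGGGAGTGG, NGGGGGGGG or NGGGGGTGG). The purine form pools A and G, which differed in the paper's in vitro binding assay. With G at position 5 the mutant zinc fingers bound more tightly than the wild type ones. With A neither bound strongly, and the affinities were roughly equal. Both forms were searched on both strands, and matches may overlap each other. Because the motifs were derived from these same sites, a match at them is not independent evidence. The sequences below are the plus strand of NCBIM37, the mm9 build of the files, written 5′ to 3′. Offsets of a match are from the midpoint of its site to the centre of the match, in bp along the plus strand. Capitals mark the matches to either motif, so a match on the minus strand reads as its C-rich complement.

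Sqstm1 encodes p62, a cargo receptor that binds ubiquitinated material and ATG8 proteins. Its site, chr11:50024206-50024523, had its midpoint 72.5 bp upstream of the TSS and overlapped the RefSeq promoter of the gene, taken as 250 bases before to 50 bases after the start. KLF1-ER had a concentration of -0.09, the lowest value listed and shared by 1424 sites, whereas KLF1-E339K-ER had 5.10, at the 59.2 percentile of all sites. No fold is given against that lowest value. The stretch around the midpoint is shown because both motif forms overlap in it.
Sqstm1 promoter, chr11:50024330-50024391: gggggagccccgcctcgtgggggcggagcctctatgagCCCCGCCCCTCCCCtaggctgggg
The purine match (GGGGAGGGG, centred 13 bp from the midpoint) and the pyrimidine match (GGGGCGGGG, 8 bp) both lie on the minus strand and share bases. A promoter site with KLF1-ER at its lowest listed value therefore held the canonical form as well as the altered one.

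Atg4b encodes the protease that trims the ends of ATG8 proteins before conjugation and releases them from lipid afterwards. Its site, chr1:95660164-95660472, lay in an intron of Atg4b with its midpoint 8708 bp downstream of the listed TSS. The concentration was 5.27 for KLF1-ER (79.5 percentile) and 0.66 for KLF1-E339K-ER (6.27 percentile). This was the site with the lowest KLF1-E339K-ER concentration of the 8. The sequences are shown because the motif at the centre and the one farther out are of different forms.
Atg4b intron, centre, chr1:95660268-95660368: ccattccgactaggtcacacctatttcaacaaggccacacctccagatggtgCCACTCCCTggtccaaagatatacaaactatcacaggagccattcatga
Atg4b intron, pyrimidine match, chr1:95660238-95660266: ggatcttatgCCACACCCAcagtcacaca
Near the midpoint stood a purine match (AGGGAGTGG, centred at 6 bp), and the pyrimidine match (TGGGTGTGG) was centred at -66 bp. At this site, higher for KLF1-ER, the central motif was thus of the purine form, with A at position 5. In the paper's in vitro assay neither protein bound a probe with A there strongly, and their affinities were roughly equal.

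Foxo3, the transcription factor of the set, had 6 sites on chromosome 10, and 44 of the 3670 closest-TSS genes (1.2%) had as many. The median gene with a site had 1, and 2567 genes had exactly 1. Both proteins had a higher site of their own at Foxo3: 3 sites were higher for KLF1-E339K-ER by 2-fold or more, 2 were higher for KLF1-ER and 1 lay within 2-fold. Of the 44 genes with 6 or more sites, 31 likewise had sites in both directions. The Foxo3 gene lies on the minus strand, so its interior has the lower coordinates. The sequences are shown in genome order because neighbouring sites of this gene differ in motif form and in the protein with the higher concentration.
Foxo3 32068 bp downstream, chr10:41964489-41964589: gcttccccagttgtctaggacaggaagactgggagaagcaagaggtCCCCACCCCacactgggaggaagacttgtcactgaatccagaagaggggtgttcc
Foxo3 23294 bp downstream, chr10:41973204-41973304: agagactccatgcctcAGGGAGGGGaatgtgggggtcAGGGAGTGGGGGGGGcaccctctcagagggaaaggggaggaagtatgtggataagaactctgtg
Foxo3 2690.5 bp downstream, chr10:41993807-41993907: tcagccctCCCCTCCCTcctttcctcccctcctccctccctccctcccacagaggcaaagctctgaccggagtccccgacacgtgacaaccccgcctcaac
Foxo3 789.5 bp downstream, toward the TSS, chr10:41995769-41995869: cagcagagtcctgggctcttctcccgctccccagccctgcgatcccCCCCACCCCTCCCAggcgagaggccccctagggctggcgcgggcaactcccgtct
Foxo3 789.5 bp downstream, toward the gene's interior, chr10:41995597-41995641: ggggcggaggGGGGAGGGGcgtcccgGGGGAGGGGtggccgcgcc
Foxo3 at the TSS, chr10:41996562-41996631: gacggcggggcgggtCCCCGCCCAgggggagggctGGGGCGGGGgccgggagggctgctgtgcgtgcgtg
Foxo3 83868 bp upstream, chr10:42080366-42080466: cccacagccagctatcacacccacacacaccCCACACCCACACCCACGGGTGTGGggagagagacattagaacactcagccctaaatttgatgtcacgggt

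The 3 Foxo3 sites with higher KLF1-E339K-ER concentration all lay in introns. At chr10:41964273-41964687, 32068 bp downstream of the TSS, the concentration was 2.91 for KLF1-ER and 5.91 for KLF1-E339K-ER, the highest mutant value of the 8 sites (82.3 percentile). This site held no purine match: its only KLF match was a pyrimidine one (GGGGTGGGG), centred 59 bp from the midpoint. It was the one site of the 8 with the GATA motif TGATAA, found at 2 places, centred at -113 and -58 bp.

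At chr10:41973096-41973412, 23294 bp downstream, the concentration was 0.50 for KLF1-ER and 4.59 for KLF1-E339K-ER (40.2 percentile). This site held 3 purine matches within 50 bp of the midpoint and no pyrimidine match. Of them, AGGGAGTGG and TGGGGGGGG run into each other and the AGGGAGGGG match lies farther out.

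At chr10:41995451-41996066, 789.5 bp downstream and the widest of the 8 sites at 616 bp, the concentration was 1.5 for KLF1-ER and 5.73 for KLF1-E339K-ER (78.1 percentile). It held 4 purine matches over its whole width, 3 of them GGGGAGGGG and 1 TGGGAGGGG that overlaps a pyrimidine match. None lay within 50 bp of the midpoint, and their centres stood at -210, -147, -131 and 66 bp.

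The Foxo3 site around the TSS itself, chr10:41996351-41996684, had its midpoint 30.5 bp downstream, in the exon of the 5′ UTR, and overlapped the RefSeq promoter. Here the order of the proteins was the other way: the concentration was 5.65 for KLF1-ER, the highest wild type value of the 8 sites (86.9 percentile), and 4.20 for KLF1-E339K-ER (29.7 percentile). The difference passed 2-fold and not 4-fold. Its 2 matches, TGGGCGGGG and GGGGCGGGG, were both pyrimidine with C at position 5 and lay 64 and 84 bp from the midpoint. The midpoints of this site and of the mutant-higher site beside it were 759 bp apart, so the higher wild type value and the higher mutant value near the Foxo3 TSS were in neighbouring but separate listed regions.

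At chr10:41993667-41994048, 2690.5 bp downstream in an intron, both proteins were listed at similar concentrations, 5.37 for KLF1-ER and 4.90 for KLF1-E339K-ER. Its single match, AGGGAGGGG, was purine and was centred at -38 bp. This site and the TSS site were the 2 of 8 at which both concentrations reached 4, which was the case at 15.91% of all sites.

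The remaining site assigned to Foxo3, chr10:42080255-42080577, lay 83868 bp upstream in an intron of another gene, Lace1. The concentration was 5.06 for KLF1-ER (74.98 percentile) and 1.39 for KLF1-E339K-ER (9.60 percentile). This site held 4 pyrimidine matches and no purine match. Of these, 2 TGGGTGTGG and 1 CGGGTGTGG lay side by side within 50 bp of the midpoint, and another CGGGTGTGG was centred 50 bp away. Closest-TSS assignment at this distance says nothing about which gene, if any, the site acts on.

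**Figure D1:**
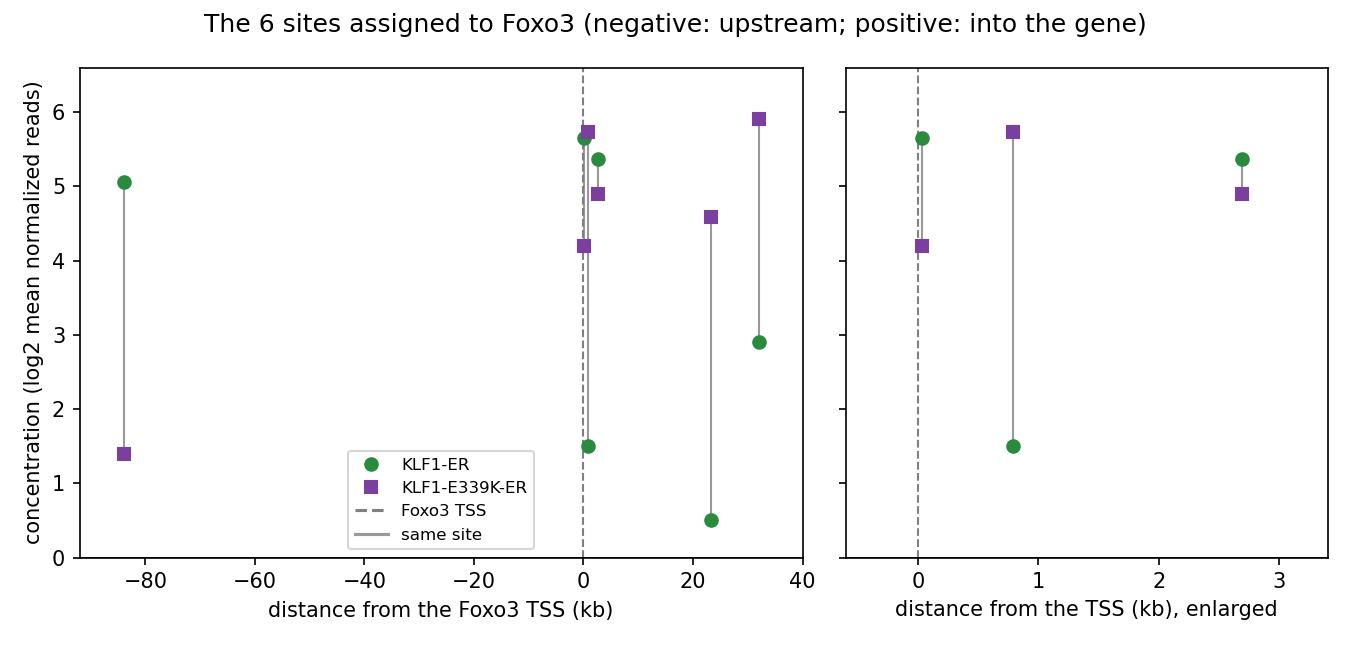
Concentration of KLF1-ER (green circles) and KLF1-E339K-ER (purple squares) at the 6 Foxo3 sites against distance from the Foxo3 TSS in kb. Values are the authors' log2 mean normalized reads, without values per library. A grey line joins the values of each site, and the right panel enlarges the region around the TSS. KLF1-ER is above KLF1-E339K-ER at the upstream site (5.06 against 1.39) and at the TSS (5.65 against 4.20), and below it 789.5, 23294 and 32068 bp into the gene.

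**Figure D2:**
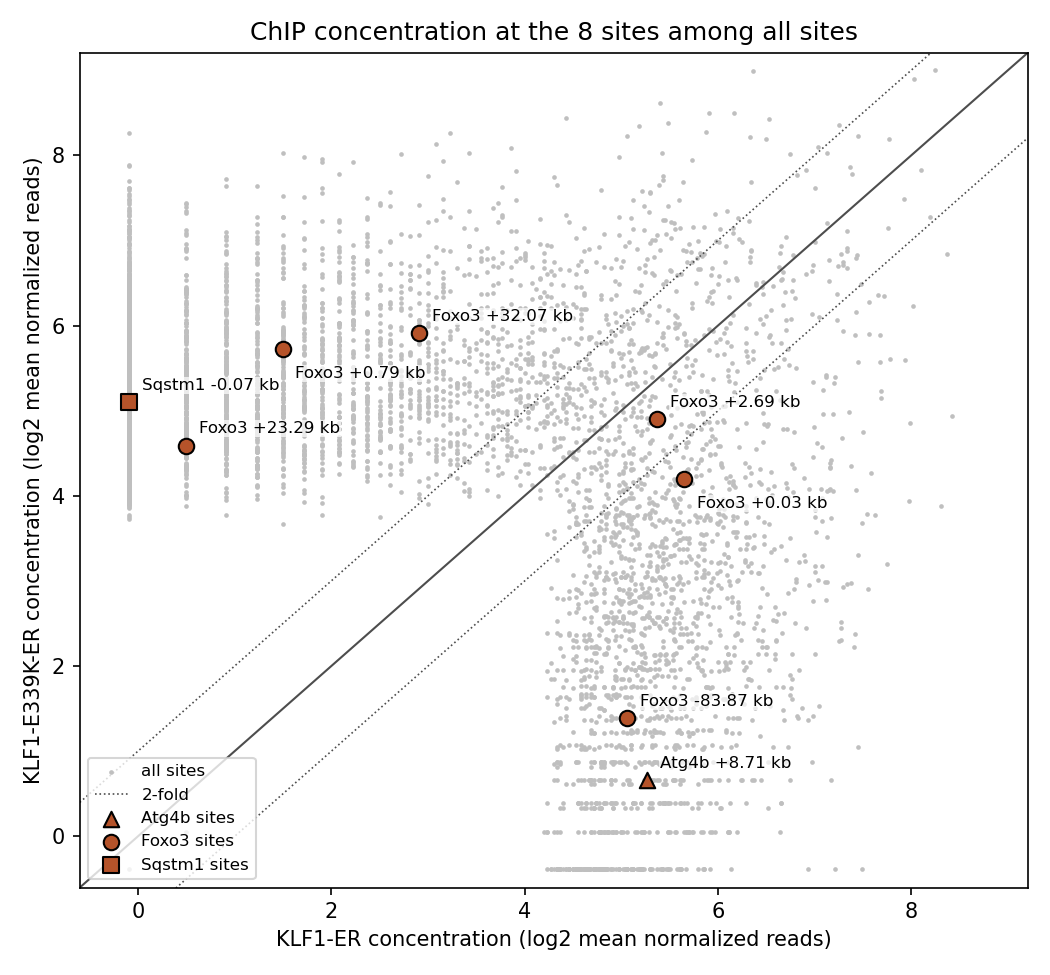
KLF1-ER concentration (x) against KLF1-E339K-ER concentration (y), both log2 mean normalized reads, for all 5551 sites (grey) and the 8 sites at Foxo3 (circles), Sqstm1 (square) and Atg4b (triangle), labelled with the distance from the TSS. The solid line marks equal values and the dotted lines 2-fold. The 4 mutant-higher sites lie at KLF1-ER concentrations of 2.91 or less, Atg4b and the upstream Foxo3 site lie at the lower right, and 2 Foxo3 sites lie near the diagonal.

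In the plot of the concentrations, points at low values stand in columns and rows, since low concentrations take few distinct values. The 2393 sites with a KLF1-ER concentration under 2 shared 7 distinct values, among them the Sqstm1 site and the Foxo3 sites 23294 and 789.5 bp downstream. For KLF1-E339K-ER, 734 sites under 2 shared 43 distinct values, among them the Atg4b site and the upstream Foxo3 site. The low concentration at each of these 5 sites is one of these steps, which are coarser for KLF1-ER than for KLF1-E339K-ER.

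Within 50 bp of the midpoint, 4 of the 8 sites held a purine match (35.5% of all sites did) and 2 held a pyrimidine match (35.3% of all sites). Sqstm1 held both, and 3 Foxo3 sites held neither, against 42.2% of all sites. Over the whole site, 5 of 8 held a purine match (58.4% of all sites) and 6 of 8 a pyrimidine match (58.6%). A KLF match of either form was missing over the whole width from 0 of the 8 sites and from 18.1% of all sites, and this difference was not tested. A GATA motif (AGATAA or TGATAA), the sequence bound by the erythroid factor GATA1, stood within 50 bp of the midpoint at 0 of the 8 sites (14.5% of all sites) and within the whole site at 1 of 8 (32.3%).

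**Figure D3:**
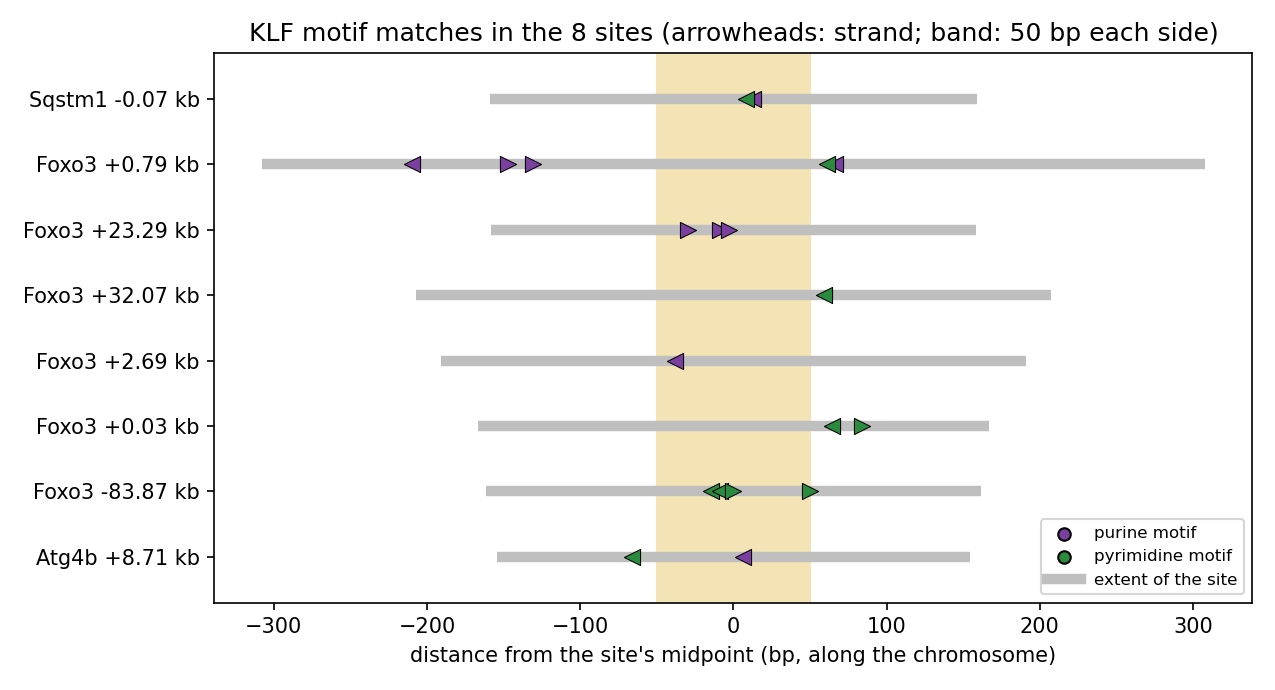
Positions of purine (purple) and pyrimidine (green) matches in the 8 sites, in bp from each site's midpoint along the chromosome, with grey bars for the extent of the site, arrowheads for the strand and a band for 50 bp to each side. Sites are ordered by how far the KLF1-E339K-ER concentration stands above that of KLF1-ER, highest at the top. The Foxo3 site 23294 bp downstream holds 3 purine matches in the band and the upstream Foxo3 site 3 pyrimidine matches, while Atg4b, the lowest, holds a purine match there.

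Motif form and concentration went together at some of these sites and not at others. The Foxo3 site 23294 bp downstream had purine matches alone with the mutant higher, and the Foxo3 TSS and upstream sites had pyrimidine matches alone with the wild type higher. The Foxo3 site 32068 bp downstream had a pyrimidine match alone with the mutant higher, and the Foxo3 site 2690.5 bp downstream had a purine match alone with values within 2-fold. Matches of both forms were present at Sqstm1, Atg4b and the Foxo3 site 789.5 bp downstream. Apart from TGGGGGGGG at the Foxo3 site 23294 bp downstream, every purine match in these sites had A at position 5.

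The sites also differed in base composition with distance from the TSS. The 3 sites within 1 kb of a TSS had a GC content of 63.8 to 74.0% and 7.86 to 11.98 CpG per 100 bp, where all sites within 1 kb had medians of 64.7% and 6.92. The 5 sites farther away had a GC content of 47.7 to 56.3% and 0.62 to 2.36 CpG per 100 bp, where all sites beyond 1 kb had medians of 55.8% and 1.59. Of the 8 sites, 3 lay within 1 kb and 5 within 10 kb of the TSS, compared with 39.5% and 67.6% of all sites.

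Promoter sequences of 9 of the 10 genes were found in the RefSeq table (GRCm38.p6), and each of the 9 was placed in mm9 by an exact match of its letters. Becn1 had no entry. A pyrimidine match was present in 8 of the 9 promoters (29.7% of 32851 promoters), and Atg7 was the one without. The Atg7 promoter lay at chr6:114620868-114621167, inside the GENCODE span that starts at 114593149. The Atg4b promoter, chr1:95651232-95651531, likewise lay inside its GENCODE span, which starts at 95648077. The sequences at these GENCODE starts were not searched. The 32851 promoters were not limited to genes listed with nascent RNA, and no difference from them was tested. A purine match was present in 3 of the 9, those of Atg4b, Gabarapl1 and Sqstm1 (22.6% of all promoters). No GATA motif was present (18.6% of all promoters). Listed sites overlapped the promoters of Foxo3 and Sqstm1 only, so the motif was present at promoters of Ulk1, Ulk2, Atg4b, Gabarapl1, Gabarapl2 and Map1lc3b where no site was listed.

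For the 7 genes without an assigned site, the nearest site of any label was measured from the GENCODE TSS. It was 11461.5 bp from Map1lc3b, at a site assigned to Fbxo31 with concentrations of 5.51 for KLF1-ER and 2.81 for KLF1-E339K-ER. It was 32076 bp from Becn1, at a site assigned to Wnk4. For Gabarapl2, Ulk2, Ulk1 and Atg7 it lay 171236.5 to 232052 bp away, and for Gabarapl1 1095358 bp. For Atg4b, a site assigned to the neighbouring gene Thap4, with concentrations of 5.30 for KLF1-ER and 1.97 for KLF1-E339K-ER, was 3687.5 bp from the GENCODE TSS, closer than the intronic site. By this measure 3 of the 10 genes had a site within 10 kb, as did 29.8% of the 10043 genes with a GENCODE position.

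The nascent RNA level of each gene was read as the authors' mean voom log2 CPM over all libraries of their fit, less the log2 of the listed length in kb, so that genes could be set side by side per length. The listed length includes introns: 84.1% of lengths were within 10% of the GENCODE span. Whether reads in introns were counted was not given in the sources used here, and the comparison per kb depends on it. The 10 genes spanned 7.20 on this log2 scale, with a median of 1.59, compared with a median of 0.82 and quartiles of -0.87 and 2.26 over all 11364 genes. Of the 10, 7 were above the median of all genes. Each level is a mean that does not separate K1, K1-ER and K1-E339K-ER cells.

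The ATG8 proteins, which coat the growing membrane, held the highest level and one of the lower ones. Map1lc3b, the gene of LC3B, was highest at 4.49 (95.2 percentile of all genes), with a mean of 7.41 log2 CPM over 7.58 kb on chr8:124114368-124121947. Gabarapl1 followed at 3.37 (88.1 percentile), with 6.57 log2 CPM over 9.14 kb on chr6:129483218-129492349. Gabarapl2 was at 0.55 (45.2 percentile), with 4.16 log2 CPM over 12.2 kb on chr8:114464603-114477512. Map1lc3b stood 1.12 above Gabarapl1 and 3.94 above Gabarapl2 on the log2 scale per kb.

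Among the genes of the conjugation system, Atg4b (chr1:95648077-95686372) had a level of 1.58 (63.3 percentile), from 6.69 log2 CPM over 34.5 kb. Atg7, the E1-like enzyme that activates ATG8 proteins and ATG12, had a level of -1.42 (19.6 percentile), from 6.35 log2 CPM over 217.514 kb on chr6:114593149-114810431. The mean log2 CPM of Atg7 ranked 6 among the 10 genes and its level per kb ranked 9.

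The initiation kinases Ulk1 and Ulk2 lay far apart. Ulk1, known for its part in clearing organelles from reticulocytes, had a level of 1.20 (56.5 percentile), from 5.88 log2 CPM over 25.6 kb on chr5:111213507-111239116. Ulk2, its close relative, was the lowest of the 10 at -2.71 (11.0 percentile), from 3.60 log2 CPM over 79.5 kb on chr11:61589151-61668575. The gap between the kinases was 3.91 on the log2 scale per kb. Becn1, a subunit of the lipid kinase complex, had a level of 1.76 (66.4 percentile), from 5.57 log2 CPM over 14.0 kb on chr11:101147266-101163600.

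Of the genes with binding sites, Sqstm1 had a level of 3.34 (87.8 percentile), from 6.75 log2 CPM over 10.639 kb on chr11:50012868-50024329. Foxo3 had a level of 1.60 (63.6 percentile), from 8.11 log2 CPM over 90.957 kb on chr10:41901647-41996561. Foxo3 ranked 1 of 10 by mean log2 CPM and 5 per kb. Genes with a site were thus found at the 63.3, 63.6 and 87.8 percentile, and genes without one from the 11.0 to the 95.2 percentile.

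The order per kb was Map1lc3b, Gabarapl1, Sqstm1, Becn1, Foxo3, Atg4b, Ulk1, Gabarapl2, Atg7 and Ulk2. Neighbouring levels differed by 0.03 between Gabarapl1 and Sqstm1, by 0.16 between Becn1 and Foxo3 and by 0.016 between Foxo3 and Atg4b. Larger steps were 1.58 from Sqstm1 to Becn1, 1.97 from Gabarapl2 to Atg7 and 1.29 from Atg7 to Ulk2. Whether any of these steps exceeds the spread between libraries cannot be told from the authors' means.

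**Figure D4:**
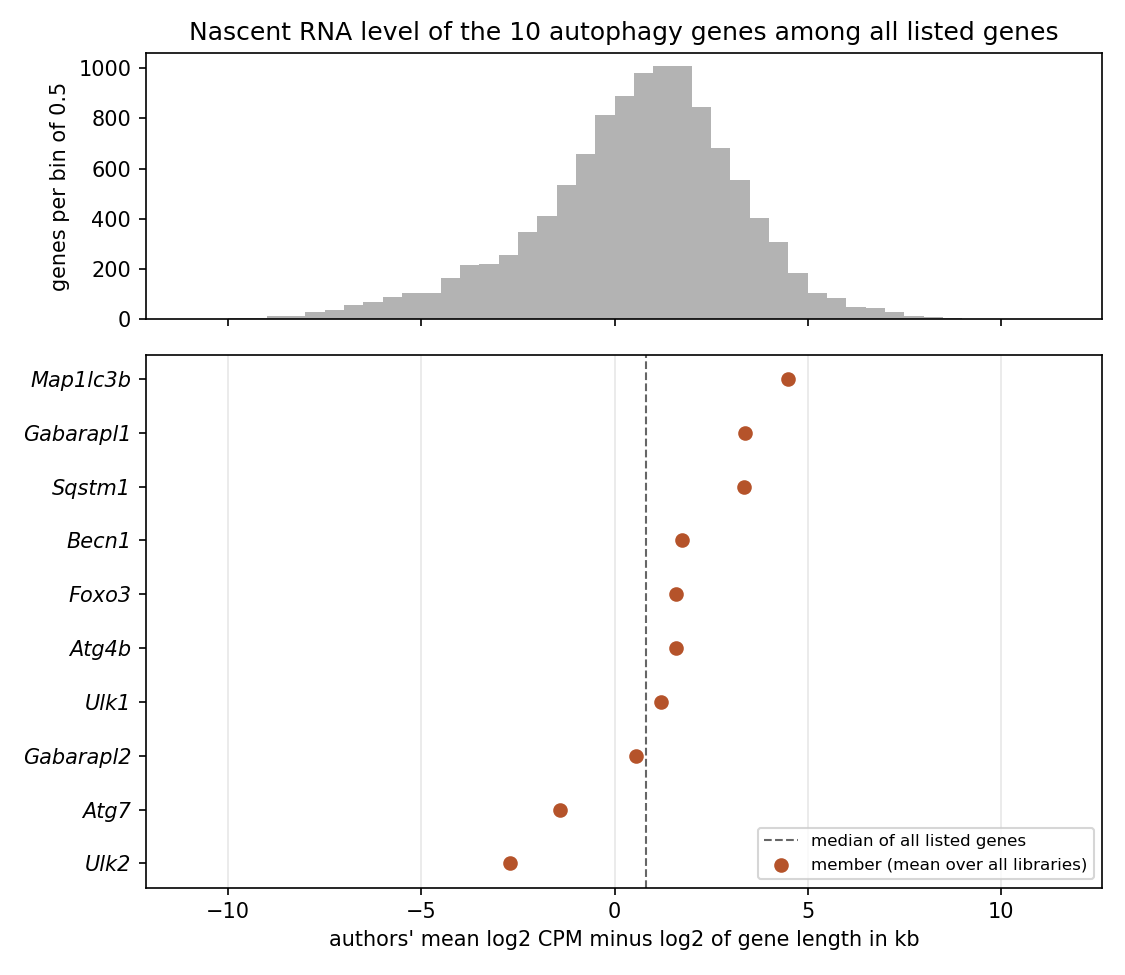
Nascent RNA level per kb (authors' mean log2 CPM minus log2 of gene length in kb) of the 10 genes (points, lower panel) below the distribution over all 11364 listed genes in bins of 0.5 (upper panel), with the median of all genes dashed. Map1lc3b at 4.49 is the highest and Ulk2 at -2.71 the lowest, and 7 of the 10 points lie right of the dashed line. The points are means over all libraries and have no error bars.

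The labelled cell type was checked against markers on the same scale. Klf1 was left out, because the lines lack the endogenous protein and K1-ER and K1-E339K-ER cells carry it as a transgene. The other 11 erythroid markers were all listed and 10 lay above the median of all genes, led by Gata1 at 6.68, while 0 of 3 hepatocyte and 0 of 3 lymphoid markers were listed. The erythroid marker below that median was Alas2 at 0.75. Of 3 macrophage markers, Cd68 at -0.52 and Adgre1 at -3.27 were both below the median, and Csf1r was not listed. Of 3 megakaryocyte markers, Itga2b at 1.25 and Gp9 at 1.08 were both above it, and Pf4 was not listed. Some of these positions depend on the division by length. By mean log2 CPM, Gp9 (1.79), Hba-a1 (3.79) and Hbb-b1 (3.87) lay below the median of all genes (5.27), and Alas2 (5.29) above it.

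A wider list of 50 autophagy genes in 7 roles was described in the same way, and 49 of them were listed, with Foxo1 the exception. Its median level per kb was 0.86 and 25 of 49 genes lay above the median of all genes. In the initiation group the highest was Atg101, a subunit of the kinase complex, at 1.35 and the lowest Ulk2. In the lipid kinase complex Becn1 was highest and Pik3c3, the catalytic subunit, lowest at -0.97. Among lipid transfer genes Atg9a, a membrane protein of the vesicles that seed the structure, was highest at 3.72 and Wipi1 lowest at -1.10. In the conjugation group Atg4d, another ATG8 protease, was highest at 3.35 and Atg10, the E2-like enzyme for ATG12, lowest at -4.17, and 3 of 11 genes were above the median of all genes. Among the 5 ATG8 genes Map1lc3b was highest and Gabarapl2 lowest per kb, while Map1lc3a had the lowest mean log2 CPM (1.66). Among 9 receptors Sqstm1 was highest and Optn lowest at -6.03, and Bnip3l, the receptor needed to clear mitochondria from reticulocytes, was at 0.86. Of the transcription factors Foxo4 was highest at 2.52 and Tfeb, a regulator of lysosome genes, lowest at -0.87, with Foxo3 between them at 1.60.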

How the data were processed

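Nascent 4sU-RNA and ChIP DNA were sequenced on the Ion Proton. By the paper's methods and the submitters' processing notes, the authors mapped reads to mm9 with TopHat2 (2.0.10) and TMAP (RNA) or TMAP alone (ChIP), then filtered RNA reads on mapping quality and excluded ChIP reads that were duplicates or mapped to several places. The counting tool, its use of strand and the annotation were not given in the sources used here. Reads from near-identical copies of a gene, or from overlapping genes, may therefore be assigned in part.

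The 2 gene tables deposited by the authors hold the mean voom log2 CPM over all libraries of 1 limma fit, which was identical in both tables, and a gene length. The deposited site table holds log2 concentrations from DiffBind for a consensus peakset called with MACS2 and GEM. All 3 tables also hold columns of the authors' own comparisons (log2 fold changes, t, p-values and FDR), which were not used. Counts per library were not analysed here, so depth is unknown and no interval, floor or test was computed.

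Genes were joined on Entrez identifier, length and mean, since 779 genes have different symbols in the tables. Gene positions were taken from GENCODE M1, and sequences from NCBIM37 (0 sites lay past a chromosome end). The sign of the listed TSS distance was read from the files: for sites over 1 kb away, 96.5% (plus strand) and 96.4% (minus strand) had a GENCODE TSS within 200 bp of the midpoint plus the distance. Motif matches had to lie wholly within 50 bp of the midpoint. Percentiles are over all genes or sites. A minimum of 2-fold (1 on the log2 scale) was used for sites, with 4-fold, a concentration of at least 4, other windows, distance limits, a level not divided by length and a minimum mean of 4 log2 CPM as alternatives. Every gene of the set and every site assigned to it was named, and the wider list by its highest and lowest gene per role and by genes with a site within 10 kb; Bnip3l was added after its value was seen. The genes and lists were chosen with earlier results of these data known, and the GATA motif search and the nearest-site distances were added after the data were seen. Python 3.11.15, pandas 2.3.3, numpy 2.4.6 and matplotlib 3.10.9 were used, and the motif search was tested on simulated sequences.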

Additional observations from a re-analysis of the deposited data

How the results depend on the processing

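Of the counts recomputed under an alternative, 10 stayed within 1.5 times the reported count, and those that did not are given here. The number of genes found (10) did not change when tables were joined by symbol. The median level was 6.46 log2 CPM when it was not divided by length, which is another quantity, and 1.60 per kb for genes with a mean of at least 4 log2 CPM, against 1.59. Of the 8 sites, 5 lay within 10 kb and 3 within 1 kb of the TSS, and the 4 sites with higher KLF1-E339K-ER concentration fell to 2 within 10 kb. Sites with a pyrimidine match rose from 2 to 6 within 100 bp of the midpoint and to 6 over the whole site. Among all sites the share was 35.3% within 50 bp, 47.2% within 100 bp and 58.6% over the whole site. The wider windows hold more sequence, and the difference from all sites was not tested. The counts by direction stayed within 1.5 times at 4-fold and at a concentration of at least 4. No paired analysis was possible because the files hold means over libraries, and for the same reason no library could be left out. The unknown depth limits every value, above all concentrations under 2.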

Other observations

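Of the 40 autophagy genes outside the set, 10 were the closest TSS of a site, as were 25.2% of all listed genes. Of their 14 sites, 10 were higher for KLF1-E339K-ER by 2-fold or more, 2 were higher for KLF1-ER and 2 lay within 2-fold. Among all sites, 61.5% and 28.7% were higher in these directions. Assigned sites within 10 kb of the TSS were present at 7 of the 40 genes. By the wider measure of a site of any label within 10 kb of a GENCODE TSS, the share of genes was 29.8%. Among ATG8 genes without a place in the set, Gabarap had a site 291.5 bp downstream of its TSS with concentrations of 2.08 for KLF1-ER and 4.92 for KLF1-E339K-ER. Map1lc3a had 2 sites, 1 at 697.5 bp downstream with 5.02 for KLF1-ER and 4.06 for KLF1-E339K-ER, and 1 at 1345 bp downstream with -0.09 and 5.22. At Map1lc3a the higher KLF1-ER value was at the site nearer the start, where the proteins lay within 2-fold. The Foxo3 TSS site likewise had a higher KLF1-ER value (5.65) than the site 789.5 bp downstream (1.5). The order did not continue at Foxo3, where KLF1-ER was 5.37 at 2690.5 bp downstream. Tfeb had the same order as Map1lc3a, with KLF1-ER at 4.08 at the nearer site and 1.5 at the farther one. Ncoa4 had the reverse, with 2.91 at the nearer site and 3.08 at the farther one. The similarity of Map1lc3a and the 2 Foxo3 sites nearest the TSS was noticed after the values were seen and was not tested.

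Atg4d, a protease like Atg4b, had a site 162.5 bp upstream of its TSS with concentrations of 5.69 for KLF1-ER and 2.29 for KLF1-E339K-ER. Ncoa4, the receptor that delivers ferritin to the lysosome, had a site 138 bp upstream with 2.91 for KLF1-ER and 5.34 for KLF1-E339K-ER and another 1773.5 bp downstream with 3.08 and 4.41. Tax1bp1, a receptor like Sqstm1, had a site 1361.5 bp upstream with 1.23 for KLF1-ER and 5.36 for KLF1-E339K-ER. Foxo4, a relative of Foxo3, had a site 97 bp upstream with 3.72 for KLF1-ER and 5.78 for KLF1-E339K-ER. Tfeb had a site 424 bp upstream with 4.08 for KLF1-ER and 5.05 for KLF1-E339K-ER, which lies within 2-fold.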
